A study of Mus musculus with 8 samples.

Results

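The collagens, laminins and other proteins of the extracellular matrix were followed in whole testes of adult male mice by RNA-seq. The genes were the protein-coding entries of the expression table whose symbol names a collagen chain (Col, a number, a, a number) or a laminin chain (Lam, a, b or c, a number), together with Nid1, Nid2, Hspg2, Fn1, Sparc, Dcn, Lum, Bgn, Mgp, Fbn1, Fbln1, Timp1, Timp2, Timp3 and Mmp2. The table held 65 such genes among 17127 genes of all kinds, of which 13785 were protein coding. The annotation named 70 genes that match, and Col5a3, Col8a2, Col9a2, Col10a1 and Col13a1 were not analysed here. All mice were 4 months old. The wild-type group (genotype WT) had 4 libraries, numbered 1 to 4, and the mutant group (genotype Iqch-/-) had 3, numbered 1, 2 and 4; mutant 3 is 1 of the 8 samples listed and was not analysed here. The mutants were homozygous for a small CRISPR-Cas9 deletion in Iqch, made in zygotes of a C57BL/6 and CBA cross. The labels do not name the mutant line; the study's plot of RNA-seq coverage over Iqch names the line as Iqch mu7. Each library came from the testis of a different mouse, with every germ and somatic cell type of the organ pooled in it.

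The matrix of the testis has a sheet-like and a fibrous part. The basement membrane is a thin sheet under the Sertoli cells and spermatogonia of each seminiferous tubule, and a similar sheet surrounds vessels and contractile peritubular myoid cells. It is built from a network of type IV collagen and a network of laminins, each laminin a trimer of an alpha, a beta and a gamma chain, and nidogens and the heparan sulphate proteoglycan perlecan link the networks. The interstitial matrix lies outside the tubules, around Leydig cells, macrophages and vessels and in the capsule, and is made of fibrillar collagens, collagen VI filaments, fibronectin, fibulin and small leucine-rich proteoglycans. Metalloproteinases cut these proteins, and TIMP proteins inhibit the metalloproteinases.

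The values were deposited as CPM, read counts of each gene scaled to the total of its library. The step between the lowest values gave 32064384 to 37551057 assigned reads per library, so that 1 read was worth 0.0266 to 0.0312 CPM. Differences are given as log2 fold changes, mutant minus wild type, of log2(CPM + 0.1), with their standard error (SE). The adjusted p is the Benjamini-Hochberg value over all 17126 genes tested with limma, and a gene was called higher or lower where it was below 0.01. Iqch itself fell from 208 ± 11.3 CPM (SD, n = 4) in wild type to 67.3 ± 2.25 CPM (SD, n = 3), a log2 fold change of -1.63, and the groups did not overlap. The median gene of the table was 0.12 higher in the mutants (log2 scale). Median-of-ratios size factors moved that median to -0.01, so small differences depended on the scaling. A call of a named gene that size factors changed is given beside the gene. Whole testes were sequenced, and mutant testes were smaller, with fewer haploid cells. Fewer cells of a type and less RNA per cell cannot be told apart in such samples. No p is given for any group of genes, because the genes were chosen with earlier results of these data known.

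Of the 65 matrix genes, 25 were called higher and 7 lower in the Iqch mutant testes, and 33 were not called. The higher calls were 38.5% of the genes, where 36.3% of all genes tested were called higher, and the lower calls were 10.8%, where 14.2% were called lower; calls in either direction came to 50.4% of all genes. The matrix genes as a whole therefore moved at about the rate of the table, and their median log2 fold change was 0.10. All 65 are protein coding. Among the 13784 protein-coding genes tested, 41.5% were called higher and 12.7% lower, with a median of 0.18. At a fold change of at least 2, 10 genes were called higher, a class that held 8.79% of all genes, and 0 were called at least 2-fold lower (limma; 1.22% of all genes), with 16 genes lower at an unadjusted p under 0.05 at any fold. Every mutant library lay above every wild-type library for 26 genes and below for 10, where 42.8% and 19.5% of all genes did so. With size factors in place of the deposited scaling the calls were 20 higher and 15 lower, against 27.0% and 25.1% of all genes, 52.1% together. All 65 genes passed the minimum of 2.2 CPM in at least 2 libraries of a group. Of these, 57 passed in both groups, and Timp1, Col6a6, Col11a1 and Col5a2 passed through the mutants only, and Lum, Mmp2, Col8a1 and Col24a1 through the wild type only. A gene that passed through a single group was favoured to be higher there. Among the 57, 22 were called higher, 7 of them at least 2-fold, and 4 lower, where 35.1%, 6.85% and 13.9% of the 16147 genes that passed in both groups were so called.

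**Figure D1:**
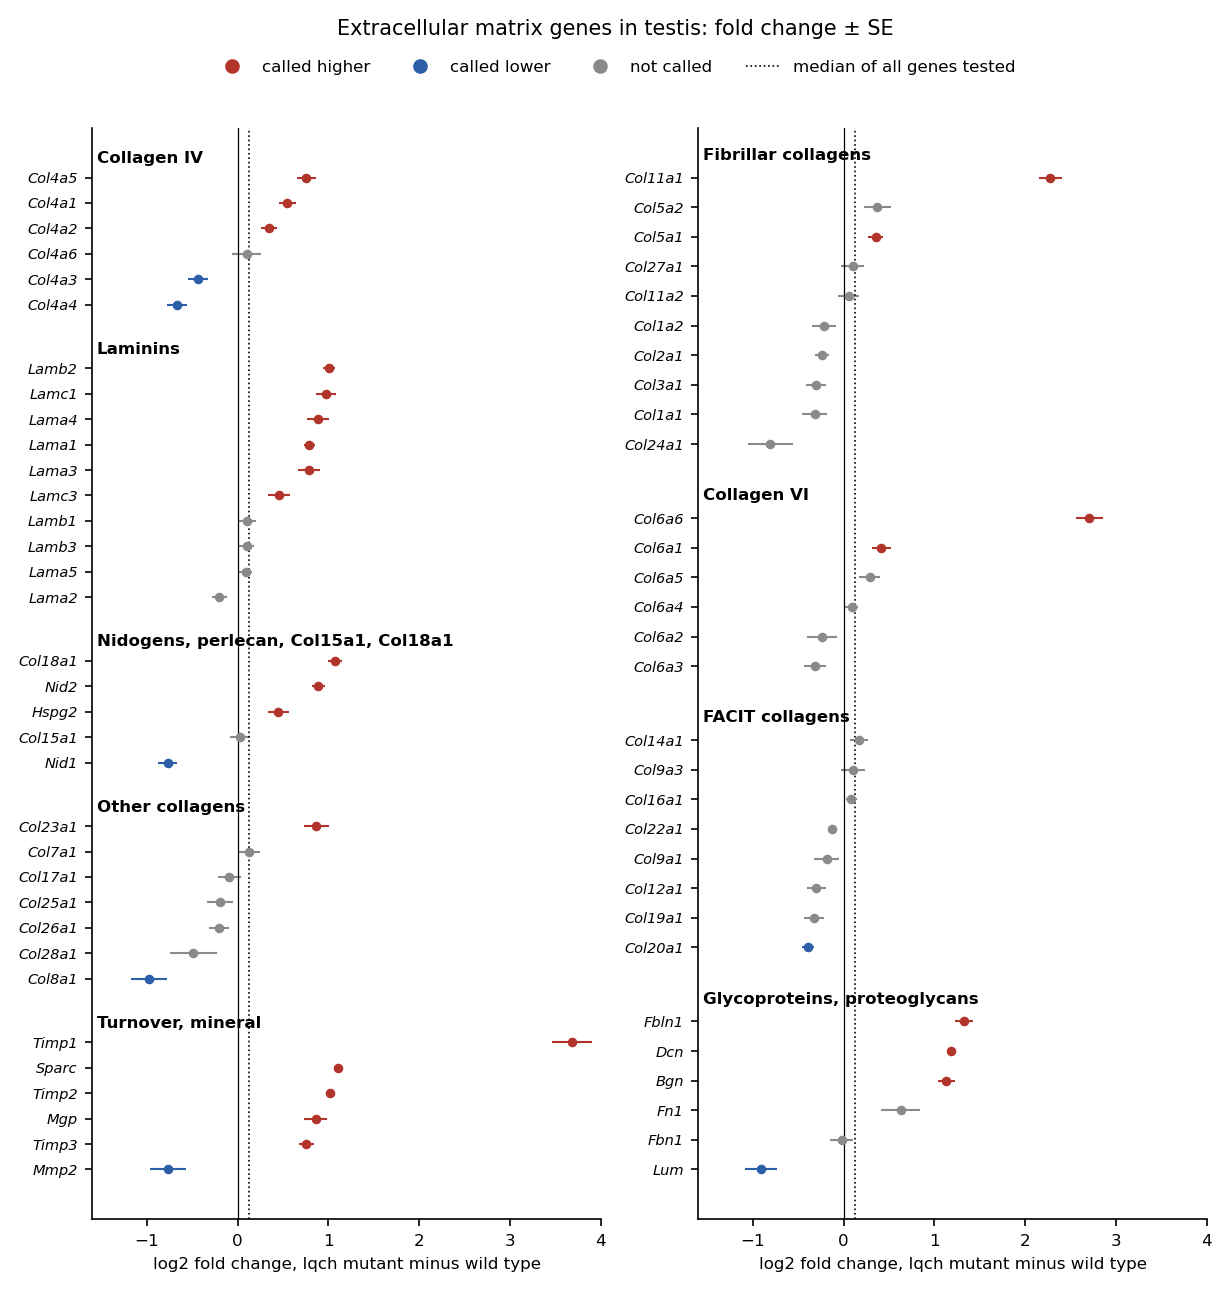
Log2 fold change (Iqch mutant minus wild type, horizontal axis) with its SE for the matrix genes, grouped by class; red points were called higher, blue lower and grey not called, the solid line marks 0 and the dotted line the median of all genes tested (0.12). Timp1, Col6a6 and Col11a1 lie farthest to the right, and laminins lie mostly to the right of the line while the chains of collagen IV fall on both sides.

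Of the 11 laminin chains in the table, 6 were called higher, 0 were called lower and 5 were not called (limma; 1 lower at an unadjusted p under 0.05), and the median log2 fold change was 0.46. The higher calls were 54.5% of the chains, where 36.3% of all genes were called higher and 14.2% lower. Of protein-coding genes, 41.5% were called higher. With size factors 5 chains were called higher and 1 lower, where 27.0% and 25.1% of all genes were so called. Lamb2, the beta 2 chain and the laminin gene with the highest level per kb of exon, measured 52.3, 49.7, 43.4 and 47.8 CPM in wild type 1 to 4 and 104, 90.5 and 96.3 CPM in mutants 1, 2 and 4. Every mutant library was thus well above every wild-type library, and the fold change was 1.01 ± 0.07 (log2, SE; adjusted p = 8.6e-08). Lamc1, the gamma 1 chain shared by most laminin trimers, measured 11.97, 12.4, 11.0 and 15.0 CPM against 21.6, 25.5 and 27.5 CPM (0.98 ± 0.11, adjusted p = 7.2e-06). Lama1, the alpha 1 chain known from the tubule basement membrane, measured 19.8 to 22.9 CPM in wild type and 35.8 to 38.1 CPM in the mutants (0.79 ± 0.07). The other alpha chains called higher were Lama4, an alpha chain of vessel walls (0.88 ± 0.12), and Lama3, an alpha chain of epithelial basement membranes (0.78 ± 0.12). Lamc3, the gamma 3 chain, was called higher at 0.46 ± 0.12, with wild type 1 at 32.6 CPM close to the mutants at 33.5 to 34.7 CPM.

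Lamb3, the beta 3 chain of epithelia and a partner of the alpha 3 chain, was not called: it measured 9.91 to 11.5 CPM in wild type and 10.6 to 12.2 CPM in the mutants (0.10 ± 0.09), and the libraries of the groups overlapped. Lamb1, the beta 1 chain, was not called (0.11 ± 0.09), nor was Lama5 (0.09 ± 0.08). Lama2, the alpha chain of muscle basement membranes, had the lowest estimate of the family at -0.20 ± 0.09, which passed the threshold only with size factors (-0.34, adjusted p = 0.0037) and with TMM factors (-0.35). The call of Lamc3 was lost with size factors (0.32, adjusted p = 0.028) and when wild type 2 or 3 or any single mutant was left out (lowest 0.39). The summed level of the 11 chains was 170 to 199 CPM in wild type and 273 to 278 CPM in the mutants, a ratio of 1.504.

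Of the 6 chains of collagen IV, 3 were called higher and 2 lower (50.0% and 33.3%). Of all genes tested, 36.3% were called higher and 14.2% lower. Type IV collagen chains are encoded by head-to-head pairs of genes, and the proteins assemble into trimers of fixed chain composition. Col4a1, the alpha 1 chain of most basement membranes, measured 21.2, 19.8, 15.9 and 21.1 CPM in wild type 1 to 4 and 27.7, 29.3 and 28.0 CPM in mutants 1, 2 and 4. The groups did not overlap (0.55 ± 0.09, adjusted p = 0.00024). Its pair partner Col4a2 was called higher at 0.34 ± 0.09, with wild type 1 at 22.1 CPM and mutant 4 at 22.7 CPM as the nearest libraries. The call was lost with size factors (0.21, adjusted p = 0.056) and when wild type 2 or 3 or mutant 1 or 2 was left out (0.28 to 0.34).

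Col4a4 and Col4a3, the paired chains of the specialised network known from the kidney glomerulus and from the tubule basement membrane, went the other way. Col4a4 measured 35.7, 27.4, 28.6 and 31.6 CPM in wild type and 18.8, 22.8 and 16.6 CPM in the mutants, with no overlap (-0.67 ± 0.11, adjusted p = 0.00017). Col4a3 measured 13.7, 10.4, 13.1 and 10.8 CPM against 8.45, 9.51 and 8.38 CPM (-0.44 ± 0.11, adjusted p = 0.004). The groups were separate but close, and the call was lost without wild type 1 (-0.37, adjusted p = 0.013), without wild type 3 (-0.39), without mutant 1 (-0.41) and without mutant 4 (-0.41). Col4a5, the chain that the alpha 3 and alpha 4 chains need for assembly, rose with the largest change of the family: 7.57, 7.66, 7.43 and 6.66 CPM became 10.5, 13.9 and 13.2 CPM (0.76 ± 0.11, adjusted p = 5.6e-05). Its neighbour Col4a6, a chain of smooth muscle basement membranes, measured 4.58, 5.13, 3.65 and 5.46 CPM against 5.06, 4.21 and 5.84 CPM and was not called (0.10 ± 0.16, -0.03 with size factors). The sum of the 6 chains was nearly level, at 85.9 to 105 CPM in wild type and 94.8 to 107 CPM in the mutants, with 3 chains higher and 2 lower.

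Among the proteins that link these networks, the nidogens moved in opposite directions. Nid1 measured 29.2, 29.3, 27.6 and 37.1 CPM in wild type 1 to 4 and 20.3, 18.4 and 15.3 CPM in mutants 1, 2 and 4 (-0.77 ± 0.11, adjusted p = 5.3e-05). Nid2 measured 15.4, 14.8, 14.5 and 13.5 CPM against 25.9, 28.5 and 26.8 CPM (0.89 ± 0.07, adjusted p = 3.5e-07). Neither gene's groups overlapped, and Nid2, below Nid1 per kb of exon in wild type (2.25 against 4.11 CPM per kb), was above it in the mutants (4.17 against 2.40 CPM per kb). Col18a1, the collagen XVIII proteoglycan from which endostatin is released, measured 22.4, 23.4, 23.6 and 27.4 CPM against 47.8, 55.4 and 49.6 CPM (1.07 ± 0.08, adjusted p = 1.5e-07). Its relative Col15a1 did not follow: 27.1, 32.5, 25.2 and 36.9 CPM stood against 30.2, 31.8 and 29.9 CPM (0.03 ± 0.11). Hspg2, which encodes perlecan, was called higher at 0.45 ± 0.11, a call lost with size factors (0.32, adjusted p = 0.028) and when wild type 2 (0.43), mutant 1 (0.36) or mutant 2 (0.42) was left out. Reads were counted without a stated strand setting, and exons of Nid2 and Col18a1 overlap other genes of the table, Rtraf (11.8% of the exon bases of Nid2) and Slc19a1 (12.7% of those of Col18a1). Further matrix genes share exon bases with genes of the table, among them Col9a3 (11.8%, with Tcfl5) and Lama4 (5.13%, with Fam229b).

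**Figure D2:**
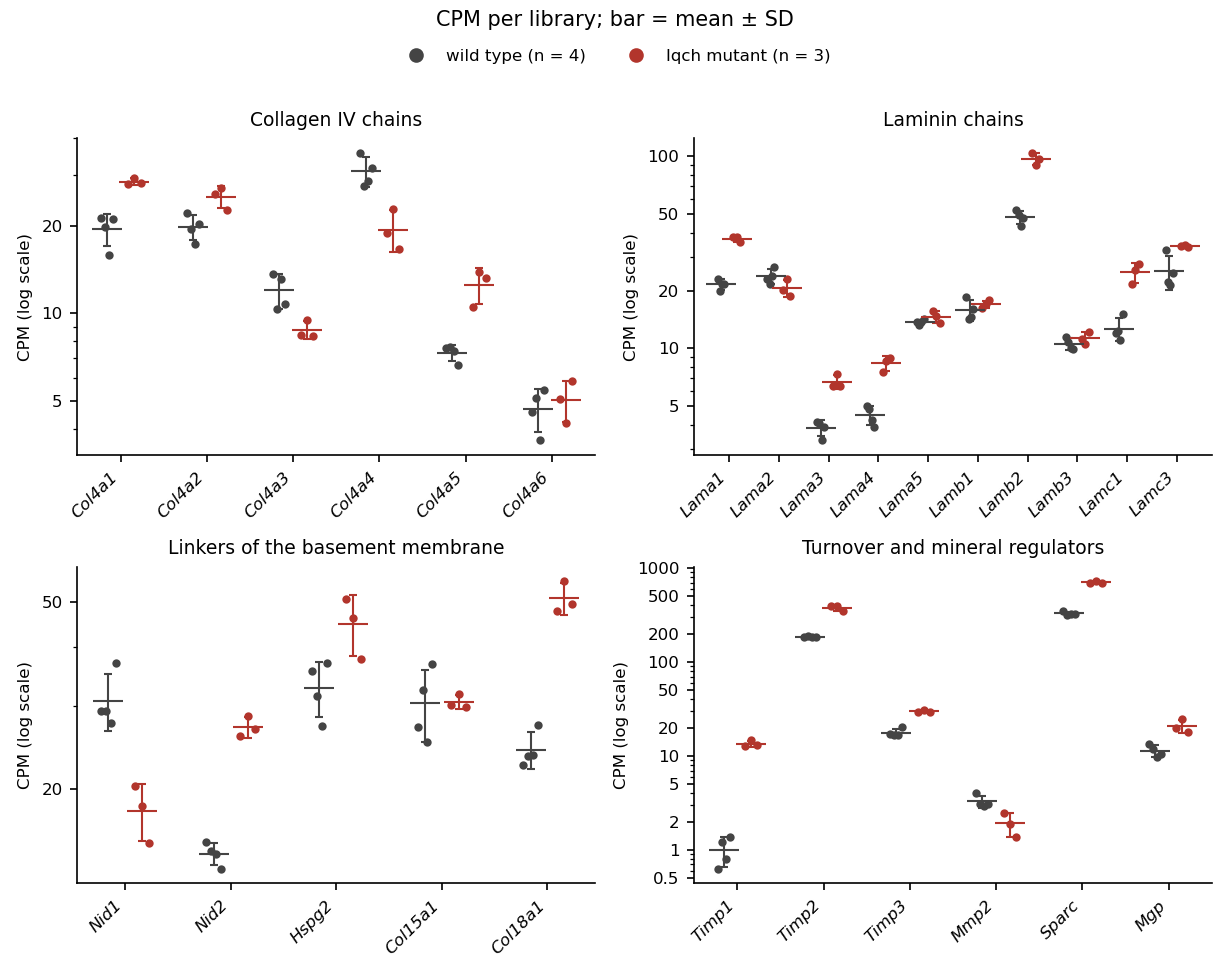
CPM in each library (vertical axis, log scale) for collagen IV chains, laminin chains, basement membrane linkers and turnover and mineral regulators; black points are the 4 wild-type and red points the 3 Iqch mutant libraries, and the bars give mean ± SD. Red points lie above black for Col4a5, Lamb2, Nid2 and Timp1 and below for Col4a4 and Nid1.

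Fibrillar collagens, the rope-like collagens of the interstitium, were mostly not called. Of 10 genes, 2 were called higher (Col11a1 and Col5a1), 0 lower and 8 were not called (limma; 4 lower at an unadjusted p under 0.05), and the median was -0.08. Col11a1, a minor fibril-forming chain best known from cartilage, measured 1.76, 1.69, 1.86 and 1.65 CPM in wild type 1 to 4 and 8.50, 8.33 and 9.68 CPM in mutants 1, 2 and 4. The level was low in wild type and rose in each mutant (2.28 ± 0.12, adjusted p = 1.7e-08), and Col11a1 passed the minimum through the mutants only. Col11a2, its partner chain, measured 4.76, 5.16, 5.78 and 4.90 CPM against 5.14, 5.08 and 5.80 CPM, with full overlap (0.05 ± 0.11, -0.08 with size factors). Col2a1, the major cartilage collagen and the fibrillar gene with the highest level per kb of exon here, measured 64.8, 63.7, 75.2 and 64.8 CPM against 61.1, 50.2 and 59.5 CPM (-0.24 ± 0.08, adjusted p = 0.015). It was called lower with size factors (-0.37, adjusted p = 0.0012) and TMM factors (-0.39). Col5a1, a chain that nucleates type I fibrils, was called higher at 0.35 ± 0.08, which was lost with size factors (0.22, adjusted p = 0.028) and without mutant 4 (0.27, adjusted p = 0.013).

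The type I and type III collagens, the bulk collagens of connective tissue, did not rise. Col1a1 measured 18.3, 14.1, 12.3 and 18.6 CPM in wild type and 14.6, 11.4 and 11.7 CPM in the mutants (-0.32 ± 0.14, adjusted p = 0.066). Col1a2 measured 32.5 to 46.2 CPM against 25.9 to 37.8 CPM (-0.22 ± 0.13). Col3a1 measured 43.7, 30.6, 34.4 and 38.1 CPM against 32.0, 30.5 and 26.1 CPM (-0.30 ± 0.11, adjusted p = 0.025). The libraries of both groups overlapped for all 3 genes, wild type 1 or 4 was highest and mutant 4 or 2 lowest, and their summed level was 78.0 to 108 CPM in wild type and 63.7 to 84.3 CPM in the mutants. Col3a1 was called lower with size factors (-0.44, adjusted p = 0.0036), with TMM factors (-0.45) and without wild type 2 (-0.39, adjusted p = 0.0054). The lowest fibrillar estimate was that of Col24a1 (-0.81 ± 0.25, adjusted p = 0.012), at 1.37 to 2.84 CPM in wild type and 1.01 to 1.54 CPM in the mutants. It crossed the threshold with both other scalings (-0.94 and -0.95), with sample weights (-0.79), without wild type 3 (-1.03) and without mutant 4 (-0.96).

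Collagen VI, which forms beaded filaments near cell surfaces, had 2 of 6 chains called higher, 0 lower and 4 not called (limma; 1 lower at an unadjusted p under 0.05). The share called higher was 33.3%, where 36.3% of all genes were called higher and 14.2% lower. Col6a6 measured 1.92, 1.78, 1.67 and 1.49 CPM in wild type 1 to 4 and 9.80, 13.8 and 11.8 CPM in mutants 1, 2 and 4 (2.71 ± 0.14, adjusted p = 1.4e-08). Col6a6 passed the minimum through the mutants only. Col6a4 and Col6a5, which lie beside it on chromosome 9, were not called. Col6a4 measured 26.0, 24.6, 23.3 and 22.6 CPM against 26.3, 23.5 and 27.1 CPM (0.09 ± 0.07, -0.05 with size factors), and Col6a5 had an estimate of 0.29 ± 0.11 (adjusted p = 0.042). Col6a1, an obligatory chain of the usual trimer, measured 16.0, 15.6, 13.9 and 18.5 CPM against 22.2, 23.4 and 18.6 CPM (0.42 ± 0.10, adjusted p = 0.0036). Its groups touched, and the call was lost with size factors (0.28, adjusted p = 0.030) and with either wild type 2 (0.41) or 3 (0.35), or mutant 1 (0.39) or 2 (0.35), left out. Its trimer partners Col6a2 (-0.23 ± 0.16) and Col6a3 (-0.32 ± 0.12, adjusted p = 0.04) were not called, and Col6a3 was called lower with size factors (-0.45).

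The FACIT collagens, which lie on the surface of fibrils, gave 0 higher calls, 1 lower call and 7 genes not called (limma; 0 higher and 4 lower at an unadjusted p under 0.05). The share called lower was 12.5%, where 14.2% of all genes were called lower and 36.3% higher. Col20a1 measured 77.3, 77.8, 70.7 and 87.2 CPM in wild type and 58.4, 62.2 and 57.6 CPM in the mutants (-0.39 ± 0.07, adjusted p = 0.00019). Col22a1, known from tissue junctions such as that of muscle and tendon, measured 318, 312, 334 and 326 CPM against 297, 286 and 299.6 CPM, a small but separate difference (-0.13 ± 0.04, adjusted p = 0.01, just short of the threshold). It was called lower with size factors (-0.27, adjusted p = 0.00014) and with a minimum of 5 CPM (-0.13, adjusted p = 0.0095). Col16a1 measured 159, 169, 158 and 184 CPM against 169, 173 and 191 CPM and was not called (0.09 ± 0.06, -0.05 with size factors). Per kb of exon these were the collagens with the highest level in wild type, with Col22a1 at 33.8, Col16a1 at 23.2 and Col20a1 at 14.3 CPM per kb, against 7.17 for Col2a1, 2.98 for Col1a2 and 2.61 for Col4a1. The order among these 3 FACIT genes was the same in the mutants (30.8, 24.6 and 10.9 CPM per kb). Col12a1, Col19a1, Col9a1, Col9a3 and Col14a1 had estimates from -0.33 to 0.17, and Col12a1 and Col19a1 were called lower with size factors (-0.43 and -0.46).

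The non-collagen glycoproteins and proteoglycans of the interstitium gave 3 higher calls, 1 lower call and 2 genes not called. The shares were 50.0% higher and 16.7% lower, where 36.3% of all genes were called higher and 14.2% lower. Dcn, which encodes the collagen-binding proteoglycan decorin, measured 39.8, 38.2, 38.2 and 36.7 CPM in wild type 1 to 4 and 90.1, 89.2 and 82.7 CPM in mutants 1, 2 and 4 (1.19 ± 0.05, adjusted p = 3e-09). Bgn, which encodes the related biglycan, measured 25.1, 21.8, 18.9 and 21.4 CPM against 53.6, 46.1 and 43.5 CPM (1.13 ± 0.09, adjusted p = 5.2e-07). Fbln1, for the elastic-fibre and basement membrane protein fibulin 1, measured 9.81, 9.20, 8.31 and 10.2 CPM against 27.2, 22.6 and 21.6 CPM (1.33 ± 0.10, adjusted p = 2e-07). In these 3 genes every mutant library stood far above the wild-type range. Lum, for lumican, a proteoglycan of the same family as decorin and biglycan, fell from 2.30, 3.29, 2.98 and 2.69 CPM to 1.58, 1.22 and 1.57 CPM (-0.91 ± 0.18, adjusted p = 0.00066). It passed the minimum through the wild type only and was thus favoured to be lower in the mutants. Fbn1, for the microfibril protein fibrillin 1, measured 9.57, 7.87, 8.10 and 7.99 CPM against 8.99, 6.61 and 9.34 CPM (-0.02 ± 0.13). Its estimate changed sign without wild type 1 (0.04), without mutant 2 (0.13) and with sample weights (0.02).

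Fibronectin, the cell-binding glycoprotein encoded by Fn1, varied widely among the mutants. It measured 32.1, 35.1, 32.0 and 30.1 CPM in wild type 1 to 4 and 73.2, 57.3 and 29.7 CPM in mutants 1, 2 and 4. Mutants 1 and 2 were above every wild-type library, and mutant 4 was below every one. With all libraries the gene was not called (0.63 ± 0.21, adjusted p = 0.022), and without mutant 4 it was called higher (1.00, adjusted p = 2.9e-06). The summed level of the 6 glycoprotein genes was 108 to 119 CPM in wild type and 255, 223 and 188 CPM in mutants 1, 2 and 4, a ratio of 1.97.

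**Figure D3:**
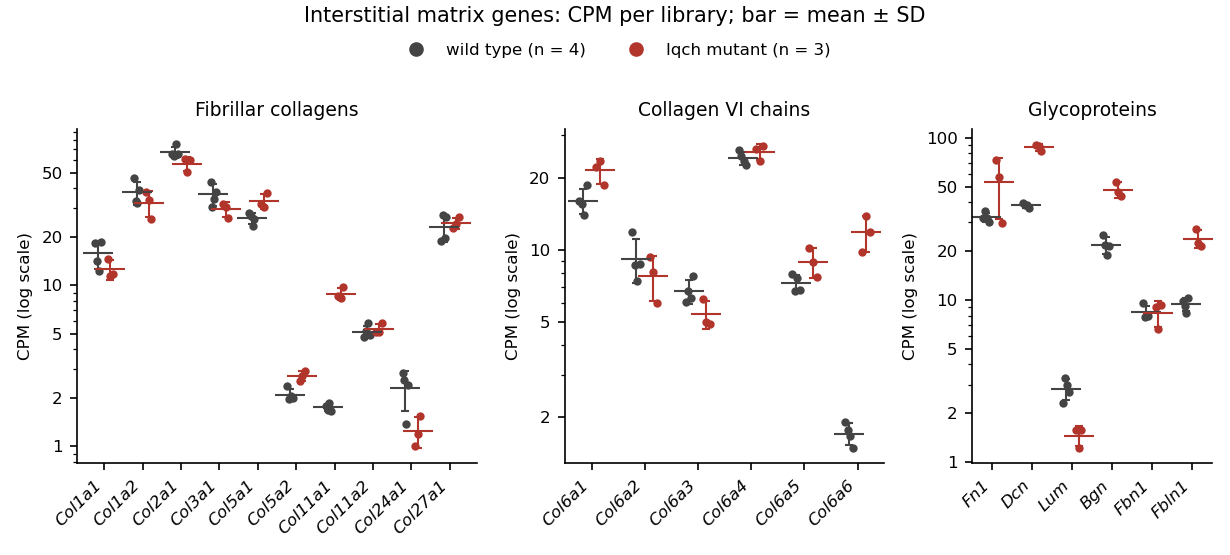
CPM in each library (vertical axis, log scale) for fibrillar collagens, collagen VI chains and interstitial glycoproteins; black points are the 4 wild-type and red points the 3 Iqch mutant libraries, and the bars give mean ± SD. Col11a1, Col6a6, Dcn, Bgn and Fbln1 are higher in each mutant, Lum is lower in each, Col1a1, Col1a2 and Col3a1 overlap, and the mutants are spread from 29.7 to 73.2 CPM for Fn1.

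The regulators of matrix turnover and mineral rose together with a single exception. Of 6 genes, 5 were called higher and 1 lower (83.3% and 16.7%), beside 36.3% and 14.2% of all genes. Timp1, an inhibitor of metalloproteinases, measured 0.63, 1.22, 0.79 and 1.39 CPM in wild type 1 to 4 and 12.8, 14.8 and 13.2 CPM in mutants 1, 2 and 4. This was the largest rise among the 65 genes (3.68 ± 0.22, adjusted p = 3.3e-08), from a level below the minimum of 2.2 CPM, and on a scale that understates the change of low genes. Timp2, an inhibitor that also takes part in the activation of pro-MMP2 at the cell surface, measured 184, 192, 185 and 187 CPM against 398, 393 and 349 CPM (1.02 ± 0.05, adjusted p = 5.4e-09). Timp3, the inhibitor bound to the matrix itself, measured 17.1, 16.7, 16.6 and 20.4 CPM against 29.5, 30.8 and 29.3 CPM (0.76 ± 0.08, adjusted p = 3.7e-06). Mmp2, the gelatinase that cuts type IV collagen and denatured collagens, fell from 4.04, 3.06, 2.92 and 3.12 CPM to 2.50, 1.87 and 1.38 CPM (-0.77 ± 0.20, adjusted p = 0.0044). Mmp2 passed the minimum through the wild type only. Its groups did not overlap, but the call was lost without wild type 1 (-0.67, adjusted p = 0.015), mutant 2 (-0.77, adjusted p = 0.014) or mutant 4 (-0.57, adjusted p = 0.023).

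Timp1 lies within Syn1 and Timp3 within Syn3, each on the opposite strand, and exons of Mmp2 share 24.3% of their bases with an antisense transcript and those of Timp3 21.3% with Syn3; none of these partners is in the table. Timp2 shares 7.44% of its exon bases with Cep295nl, which is on the same strand and is in the table. Sparc, a collagen-binding matricellular protein, had the highest level per kb of exon among the 65 genes, 77.1 CPM per kb in wild type. It measured 351, 316, 328 and 321.0 CPM in wild type 1 to 4 and 692, 730 and 696 CPM in mutants 1, 2 and 4 (1.10 ± 0.04, adjusted p = 1.5e-09). Mgp, an inhibitor of calcification, was called higher at 0.86 ± 0.12. Sparc stood at 17.3 to 26.7 times Col1a1 in CPM in wild type and at 47.5 to 64.3 times in the mutants. The summed level of the 6 regulators was 540 to 570 CPM against 1107 to 1195 CPM, a ratio of 2.10, carried mainly by Sparc and Timp2.

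The remaining 7 collagens, of transmembrane, anchoring and network-forming types, gave 1 higher and 1 lower call (14.3% each). Of all genes, 36.3% were called higher and 14.2% lower. Col8a1, a short-chain collagen of vessel walls, measured 3.98, 5.16, 5.08 and 2.80 CPM in wild type 1 to 4 and 2.18, 1.84 and 2.15 CPM in mutants 1, 2 and 4 (-0.98 ± 0.20, adjusted p = 0.00093). Wild type 4 lay nearest to the mutants, and Col8a1 passed the minimum through the wild type only. Col23a1, a transmembrane collagen, was called higher at 0.87 ± 0.13, from 3.89 to 5.45 CPM to 7.56 to 9.57 CPM. Col17a1, a transmembrane collagen of epithelial attachment sites, measured 4.22, 5.01, 4.41 and 5.30 CPM against 4.08, 4.24 and 4.98 CPM (-0.09 ± 0.13). Col26a1, the gene of this class with the highest level per kb, measured 15.3, 16.9, 14.7 and 19.4 CPM against 16.7, 13.9 and 12.8 CPM (-0.20 ± 0.11). Both sets overlapped, as they did for Col7a1, Col25a1 and Col28a1, whose estimates ran from -0.49 to 0.13.

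Basement membrane and interstitial genes can be set beside each other. Of 22 basement membrane genes, 12 were called higher and 3 lower, and 7 were not called; their median log2 fold change was 0.40, which is 0.28 above the median of all genes. Of 30 interstitial genes, 7 were called higher and 2 lower, and 21 were not called, with a median of 0.07. The shares called higher were 54.5% and 23.3%, beside 36.3% of all genes and 41.5% of protein-coding genes. With size factors the counts were 9 higher and 4 lower against 5 higher and 9 lower, where 27.0% of all genes were called higher and 25.1% lower. All 22 basement membrane genes passed the minimum in both groups. Among the 25 interstitial genes that did so, 5 were called higher and 1 lower, beside 35.1% and 13.9% of all genes that did so. No test was made of the difference between the sets, whose genes were chosen by function and share the same libraries.

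By library, the basement membrane genes summed to 49.5, 46.0, 42.8 and 49.8 CPM per kb in wild type 1 to 4 and 65.8, 66.5 and 63.5 CPM per kb in mutants 1, 2 and 4. The interstitial genes summed to 123, 121, 118 and 129 against 134, 128 and 129.7 CPM per kb, so that per kb only the first sum was separate between the groups. In plain CPM, where long genes weigh more, the interstitial sum was separate too, at 997.8 to 1064 CPM in wild type and 1086 to 1142 CPM in the mutants. That separation rested on the deposited scaling. The size factors were 0.957 to 0.963 in wild type and 1.04 to 1.07 in the mutants, and interstitial sums divided by them overlapped between the groups. The ratio of basement membrane to interstitial sums in plain CPM was 0.37 to 0.42 in wild type and 0.48 to 0.52 in the mutants. Per kb, this ratio was 0.36 to 0.40 in wild type and 0.49 to 0.52 in the mutants, 1.31 times as high on average. No scaling of whole libraries changes either ratio. Col16a1, Col20a1 and Col22a1 made up 56.5% to 59.4% of the interstitial sum in wild type and 48.8% to 52.7% in the mutants. Without them the ratio was 0.90 to 0.94 in wild type and 0.96 to 1.06 in the mutants, 1.11 times as high, so most of the gap rested on these 3 genes. The median shift of the basement membrane genes from their wild-type mean was 0.42, 0.46 and 0.27 in mutants 1, 2 and 4 and -0.11 to 0.11 in wild type. The corresponding shift of the interstitial genes was 0.03, -0.03 and 0.12 against -0.08 to 0.04. Mutant 4 therefore showed the smallest gap between the sets, 0.15, where mutants 1 and 2 showed 0.39 and 0.49.

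**Figure D4:**
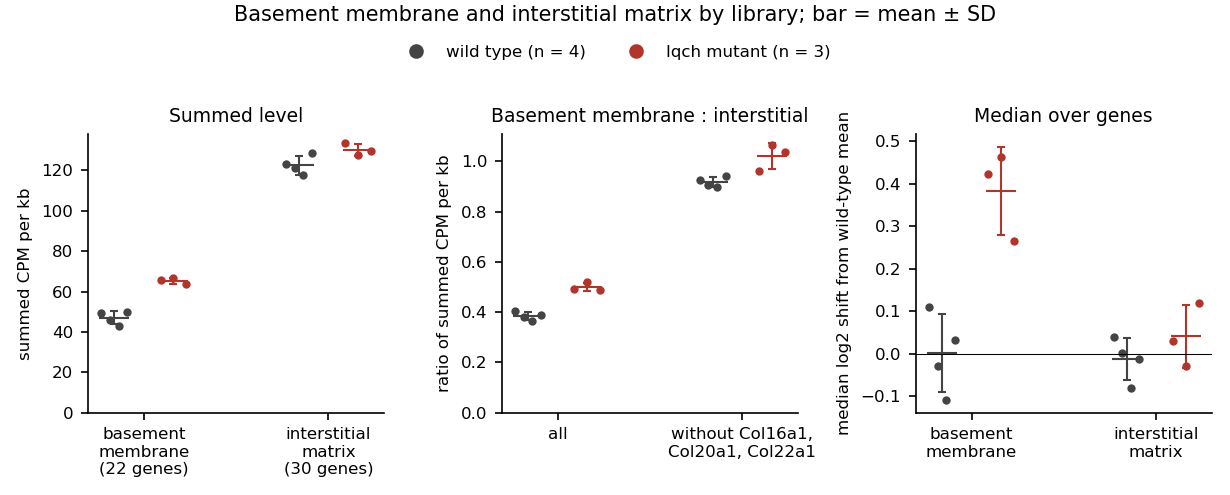
Summed CPM per kb of exon of basement membrane and interstitial genes (left), the ratio of these sums with and without Col16a1, Col20a1 and Col22a1 (middle) and the median log2 shift of each set from its wild-type mean (right), per library; black points are wild type (n = 4), red points Iqch mutants (n = 3), bars mean ± SD. Basement membrane sums and the ratios are higher in every mutant, and the gap in the ratio is smaller without the 3 FACIT genes.

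**Figure D5:**
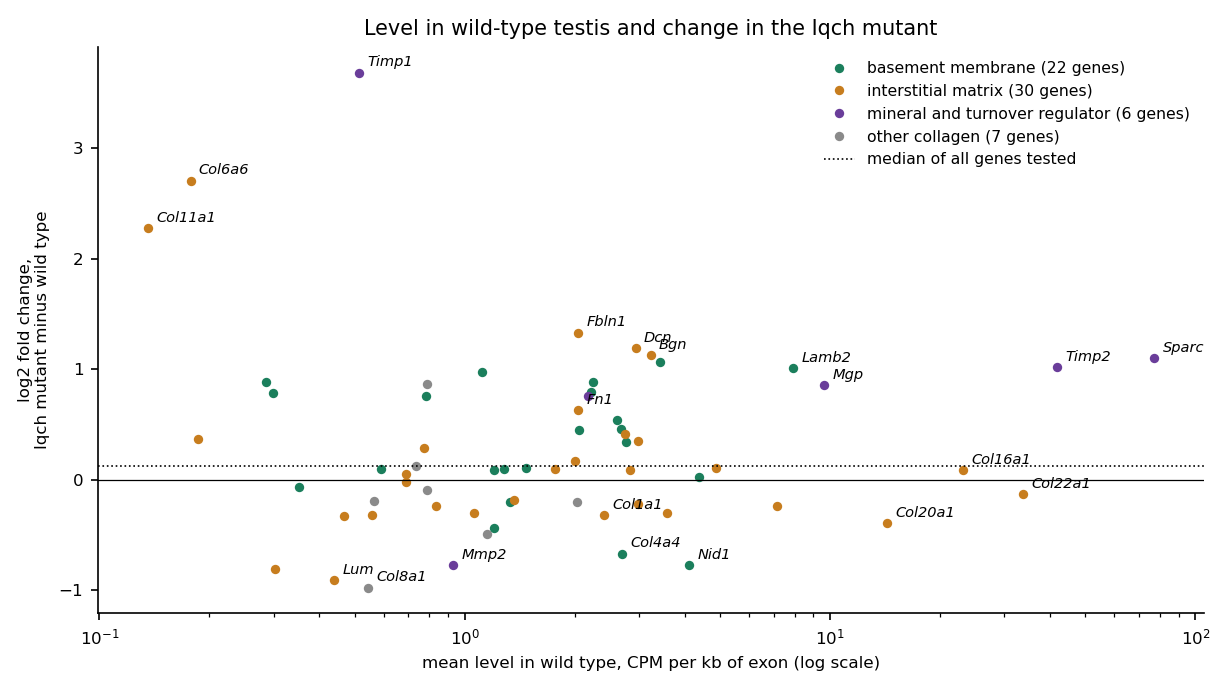
Mean level in wild type (horizontal axis, CPM per kb of exon, log scale) against log2 fold change (vertical axis) for the 65 genes, coloured by part of the matrix; the dotted line is the median of all genes tested. Sparc and Timp2 combine the highest levels with a rise of about 1, Col22a1, Col16a1 and Col20a1 are high and near or below 0, and Timp1, Col6a6 and Col11a1 start from low levels.

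Several matrix genes lie next to each other, and neighbours did not always move alike. The head-to-head pairs Col4a1 and Col4a2 on chromosome 8 (both higher) and Col4a3 and Col4a4 on chromosome 1 (both lower) each moved in a single direction, while Col4a5 on chromosome X was called higher and Col4a6, which starts 1282 bases away, was not called. Dcn (GRCm39, chromosome 10, 97315275 to 97358155) and Lum (97400990 to 97408577) lie 42834 bases apart on the same strand and were called in opposite directions. Col6a1 and Col6a2 on chromosome 10 had estimates of 0.42 and -0.23. Col3a1 and Col5a2 converge on chromosome 1 with estimates of -0.30 and 0.37, neither called.

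The upstream sequences of 6 genes are shown, chosen by the size of their changes. They are the 3 largest rises (Timp1, Col6a6 and Col11a1), the 2 largest falls (Col8a1 and Lum) and Dcn as the neighbour of Lum that rose. All but Dcn passed the minimum of 2.2 CPM through a single group, the group in which they were higher. Each run is the 150 bases before the start of the gene's canonical transcript in GRCm39, written 5′ to 3′ on the strand of the gene. For Timp1 the last 35 bases, which lie in an exon of another Timp1 transcript, are left out. Capitals mark the letters of 4 short motifs, each searched on both strands and none overlapping another kind here. The AP-1 motif was searched as TGANTCA. The motif known as the TATA box was searched as TATAAA, the CCAAT box by the letters of its name, and the motif known as the GC box as GGGCGG.
Timp1: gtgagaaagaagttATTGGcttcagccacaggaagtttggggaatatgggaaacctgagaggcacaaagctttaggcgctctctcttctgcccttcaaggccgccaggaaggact
Col6a6: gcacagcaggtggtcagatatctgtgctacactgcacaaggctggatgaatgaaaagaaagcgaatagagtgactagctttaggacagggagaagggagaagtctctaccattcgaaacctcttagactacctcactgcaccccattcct
Col11a1: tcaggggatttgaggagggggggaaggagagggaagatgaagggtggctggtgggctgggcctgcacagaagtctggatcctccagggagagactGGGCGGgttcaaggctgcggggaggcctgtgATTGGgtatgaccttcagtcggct
Col8a1: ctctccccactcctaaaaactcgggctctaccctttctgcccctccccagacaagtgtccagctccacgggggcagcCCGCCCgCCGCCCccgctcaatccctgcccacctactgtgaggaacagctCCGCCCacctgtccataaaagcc
Lum: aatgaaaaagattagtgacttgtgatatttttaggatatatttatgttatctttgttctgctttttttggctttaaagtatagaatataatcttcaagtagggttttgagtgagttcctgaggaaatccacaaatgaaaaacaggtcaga
Dcn: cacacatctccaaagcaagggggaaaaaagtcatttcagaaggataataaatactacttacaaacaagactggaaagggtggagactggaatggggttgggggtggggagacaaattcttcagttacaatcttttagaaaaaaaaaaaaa
The Timp1 run is chrX:20736201-20736315 (plus strand), within the span of Syn1. The other runs are chr9:105705562-105705711 (Col6a6, minus strand), chr3:113823984-113824133 (Col11a1, plus strand), chr16:57575101-57575250 (Col8a1, minus strand), chr10:97400840-97400989 (Lum, plus strand) and chr10:97315125-97315274 (Dcn, plus strand), and none overlaps an annotated exon. A CCAAT box stands in the runs of Timp1 and Col11a1, a GC box in that of Col11a1, and 3 GC boxes in that of Col8a1. None of the 4 motifs stands in the runs of Col6a6, Lum and Dcn, and these letters say nothing of which factors bind there. Lum had the lowest GC content of the 6 (29.3%) and Col8a1 the highest (64.7%), where the median of all 13785 such windows was 59.3%. Over the 65 matrix genes, a CCAAT box was in 23.1% of the windows, a GC box in 44.6%, a TATA box in 9.23% and an AP-1 motif in 0, where all protein-coding genes of the table had them in 27.6%, 42.3%, 3.68% and 2.83%. The 6 matrix genes with a TATA box were Col3a1, Col11a2, Col14a1, Col17a1, Col19a1 and Mgp, of which Mgp was called higher and the others were not called.

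The genes that receive, process and regulate the matrix were called higher in larger shares than the matrix genes. In 4 lists of other genes, 54 of 72 in the table were called higher and 1 lower, with 49 higher and 4 lower under size factors. Of all genes 36.3% were called higher and 14.2% lower, and of protein-coding genes 41.5% and 12.7%. With size factors the shares of all genes were 27.0% higher and 25.1% lower. Of the 72 genes, 63 passed the minimum in both groups, and 46 of these were called higher and 1 lower, beside 35.1% and 13.9% of all genes that did so. The other 9, among them Itga5, Loxl2 and Mmp23, reached the minimum in at most 1 wild-type library and passed through the mutants only, and 8 of them were called higher. These lists were chosen with earlier results known and no test was made of them. Of 20 matrix receptors, 14 were called higher and 0 lower (limma; 1 lower at an unadjusted p under 0.05). The largest change was that of Itga5, the fibronectin receptor subunit, from 1.49 to 1.85 CPM to 6.60 to 8.42 CPM (2.16 ± 0.14). Dag1, for the laminin receptor dystroglycan, had the highest CPM of the list and rose from 56.2 to 60.3 CPM to 105 to 110.2 CPM (0.88 ± 0.05). The laminin-binding integrin subunit Itga6 (1.09 ± 0.09) and its partner Itgb1 (0.68 ± 0.06) were called higher, as were the collagen receptors Ddr1 (1.75 ± 0.05) and Ddr2 (1.12 ± 0.12), while the collagen-binding subunits Itga1 (-0.12 ± 0.07), Itga2 (-0.28 ± 0.12) and Itga11 (0.17 ± 0.10) were not called. With size factors Itga1 (-0.25, adjusted p = 0.0048) and Itga2 (-0.41, adjusted p = 0.0080) were called lower.

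Of 20 genes of collagen maturation, the enzymes and chaperones that hydroxylate, fold, trim and crosslink collagen, 16 were called higher and 0 lower (limma; 0 lower at an unadjusted p under 0.05). Loxl2, a crosslinking lysyl oxidase, changed most (0.73 to 1.41 CPM against 3.74 to 5.41 CPM, 1.92 ± 0.22). Pcolce, which enhances the trimming of procollagen, had the highest CPM of the list and rose from 71.0 to 86.9 CPM to 208 to 227 CPM (1.48 ± 0.06). Serpinh1, the collagen chaperone HSP47, was not called (-0.12 ± 0.08), and neither were Plod1 (0.07 ± 0.09), Loxl1 (-0.01 ± 0.09) and Adamts2 (0.39 ± 0.14). Of 17 genes of TGF beta signalling, a main inducer of matrix genes, 13 were called higher and 0 lower (limma; 0 lower at an unadjusted p under 0.05). Ltbp1, which holds latent TGF beta in the matrix, changed most (9.95 to 12.8 CPM against 26.8 to 35.8 CPM, 1.46 ± 0.11), and the receptor gene Tgfbr1, with the highest CPM of the list, changed by 0.21 ± 0.05, a call lost with size factors (0.08, adjusted p = 0.18). Ccn2, a textbook target of the pathway, measured 24.3, 13.4, 15.8 and 15.8 CPM against 15.3, 15.5 and 11.5 CPM and was not called. Of 15 other proteases and inhibitors, 11 were called higher and 1 lower. Mmp23 changed most (0.67 to 2.00 CPM against 3.65 to 4.51 CPM, 1.81 ± 0.28), Mmp14, the membrane-bound activator of MMP2, had the highest CPM (20.8 to 25.7 CPM against 42.1 to 44.4 CPM, 0.91 ± 0.07), and Timp4 was called lower (3.71 to 5.09 CPM against 3.13 to 3.21 CPM, -0.46 ± 0.13, adjusted p = 0.0091). The 4 lists held 0 lower calls when wild type 1, 2 or 4 or any single mutant was left out, and 2 without wild type 3.

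Markers of the cell types that make or neighbour the matrix moved too, and their counts stand beside 36.3% of all genes called higher and 14.2% lower. Of protein-coding genes, 41.5% were called higher and 12.7% lower. Sertoli markers were called higher in 9 of 9 genes (7 with size factors), with a summed level of 415 to 444 CPM in wild type and 737 to 764 CPM in the mutants (ratio 1.73; Amhr2 highest). Leydig markers were higher in 6 of 7 (1021 to 1224 CPM against 4296 to 4472 CPM, ratio 3.97; Insl3 highest), macrophage markers in 7 of 8 (76.6 to 86.0 CPM against 199 to 233 CPM, ratio 2.63; Mrc1 highest) and stromal fibroblast markers in 4 of 6, with 1 lower (44.5 to 50.5 CPM against 76.9 to 88.3 CPM, ratio 1.68; Pdgfra highest). Insl3 carried much of the rise in the Leydig sum, at 424 to 452 CPM in wild type and 2918 to 2984 CPM in the mutants. The median log2 fold change of the Leydig list was 1.42, and Star was not called (0.24 ± 0.17). Peritubular myoid markers were higher in 3 of 8 (37.5%) and lower in 1, with a median log2 fold change of 0.27. Tpm2 (1.00 ± 0.14), Des (0.61 ± 0.11) and Myl9 (0.60 ± 0.06) were called higher. The most abundant gene of this list, Actg2, fell from 280 to 329 CPM to 209.8 to 238 CPM (-0.44 ± 0.06). Which cells of the testis its reads came from was not tested. The sum of the list was 398 to 474 CPM against 371 to 413 CPM (ratio 0.91), and that of the 7 genes other than Actg2 was 118 to 145 CPM against 161 to 195 CPM (ratio 1.29). Acta2 (34.7 to 46.0 CPM against 42.4 to 59.4 CPM) and Myh11 (23.4 to 33.2 CPM against 22.9 to 31.5 CPM) overlapped between groups. Endothelial markers were higher in 2 of 6 (36.5 to 40.8 CPM against 50.3 to 52.6 CPM, ratio 1.33; Vwf highest, not called but lower with size factors at -0.35) and markers of the mesothelium of the capsule in 1 of 4 (14.7 to 23.9 CPM against 25.5 to 37.6 CPM, ratio 1.57; Krt8 highest in wild type). Spermatid markers were lower in 7 of 8 (8 with size factors) and higher in 0 (limma; 0 higher at an unadjusted p under 0.05), with a ratio of 0.66. Of 8 epididymal markers 1, Spink8, was in the table, at 3.86 to 6.38 CPM against 2.09 to 2.40 CPM. The part of these cell types in the changes of the matrix genes was not tested.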

How the data were processed

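Total RNA of whole testes was extracted with TRIzol, treated with DNase and made into TruSeq libraries, per the labels. The authors trimmed reads with Trimmomatic, aligned and counted them with Subread and featureCounts on GRCm39 (mm39), kept genes with at least 75 reads in at least 2 samples of a group, and deposited CPM values of 17127 genes in 7 libraries; strand setting and annotation release are not given in the sources used here. All values were whole multiples of the value of 1 read, to within 0.0001 of a read, but too few low values exist to rebuild counts safely, so edgeR and DESeq2, which the authors used, were not run.

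Genes were matched by identifier to GENCODE M39 (GRCm39; 17045 found, 82 not); exon length is the union of annotated exons, and upstream sequences were read from that genome. Using limma 3.58.1 (R 4.3.3), linear models with trended empirical Bayes moderation and no covariates were fitted to log2(CPM + 0.1) of the 17126 genes at 2.2 CPM or more in at least 2 libraries of a group, with the study's threshold of 0.01. In data simulated at these levels with 200 genes changed 2-fold, 200 were called, and 1 unchanged gene of 16924 tested. The simulation gave every gene the same fixed spread and as many rises as falls, and changed no gene of very low level. The real libraries differ in this, so it does not show how complete or clean the calls were in them. P-values measure the spread between single mice.

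Members, classes and lists were chosen with earlier results of these data known. Values in every library are given, in each of 9 classes, for the genes with the largest change, the smallest change and the highest level per kb, and for genes called lower or at least 2-fold higher; 1 gene is counted but not reported individually here. Others named with values, among them Fn1, Col1a1, Col3a1, Lamc1 and Nid2, were chosen after their values were seen. Alternatives were pseudocounts of 0.01 and 1, no minimum and 5 CPM, median-of-ratios size factors, TMM factors (unweighted), sample weights, a replicate block and each library left out; the both-group minimum, and the ratio without 3 genes or single libraries, were added after seeing the data.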

Additional observations from a re-analysis of the deposited data

Results flagged for a closer look

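In the wild-type group of 4 libraries, a single library stood apart from the other 3 by Dixon's criterion for 3 of 66 genes looked at, where chance marks about 1 in 20. Fbn1 measured 9.574 CPM in wild type 1, and 7.865 to 8.095 CPM in the others. Timp3 measured 20.4 CPM in wild type 4, against 16.59 to 17.05 CPM. Col2a1 measured 75.17 CPM in wild type 3, against 63.73 to 64.8 CPM. These are 3 different libraries. The mutant group, with 3 libraries, was not examined in this way.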

How the results depend on the processing

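Over 15 alternatives, 20 of the 25 higher calls, 4 of the 7 lower calls and 21 of the 33 genes not called kept their call in each, and no gene was called in opposite directions. The scaling mattered most. Median-of-ratios size factors and TMM factors gave 4294 and 4516 lower calls over all genes, 15 and 15 among the matrix genes and 9 and 9 among the interstitial genes. The basement membrane median became 0.262 and 0.247, and the interstitial median -0.064 and -0.078. The lower calls in the 4 pathway lists became 4 and 5, and 0 with a minimum of 5 CPM (3 lower at an unadjusted p under 0.05 in the reported limma fit). Under these 2 scalings the estimates reversed for Col11a2 (-0.078 and -0.093), Col15a1 (-0.109 and -0.123), Col16a1 (-0.049 and -0.064), Col4a6 (-0.033 and -0.047) and Col6a4 (-0.047 and -0.062); none of these was called. Sample weights gave 4 lower interstitial calls, 2 lower pathway calls and an Fbn1 estimate of 0.021. With only genes past the minimum in both groups, the lower calls were 4 among the matrix genes and 1 among the interstitial genes, since fewer genes were counted. The ratio of basement membrane to interstitial sums fell to 1.113 without Col16a1, Col20a1 and Col22a1.

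Leaving out single libraries gave ranges of -0.006 to 0.11 for Col11a2, -0.059 to 0.124 for Col15a1, -0.014 to 0.219 for Col4a6 and -0.114 to 0.132 for Fbn1, of -0.001 to 0.105 for the interstitial median and of 0 to 2 lower pathway calls. The replicate numbers share only a number: deviations of same-numbered libraries correlated at 0.011, 0.00051 and -0.083. A replicate block over libraries 1, 2 and 4 of each group gave 22 higher and 8 lower matrix calls, 4 lower interstitial calls, 2 lower pathway calls, an interstitial median of -0.001, lower calls of Col1a1 (-0.433) and Col24a1 (-1.03), calls lost for Col4a3, Col5a1, Col6a1 and Col4a2, and reversed estimates for Col15a1 (-0.059) and Col4a6 (-0.014). The causes of these shifts were not tested. edgeR and DESeq2 were not run. The SE reached 0.26 for Col28a1 and 0.25 for Col24a1. Differences of that size were not detectable for such genes with 4 and 3 libraries and this spread between mice.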
